A study of Ovis aries with 6 samples.

Results

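A rule on gene symbols defines the group described here, the genes of the inhibin, activin and follistatin system: INHA, INHBA, INHBB, FST, FSTL1 and FSTL3. Of these 6, the expression table listed 4 by symbol (INHA, INHBA, FST and FSTL1), among 14480 genes in all, each on 1 row. INHBB and FSTL3 were not listed by symbol and are not analysed here. The rule names symbols and sets no bound on a measured value, but the members were chosen with earlier results of these data known. All 4 listed genes passed the filter on low values (at least 0.5 FPKM in at least 3 libraries) and were above 0 in all 6 libraries. FPKM is the number of fragments scaled by transcript length and by the library's total, so levels can be compared between genes.

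Inhibins and activins are paired ligands of the TGF-beta family. Activins are made of beta subunits, such as the beta A subunit encoded by INHBA, and inhibins pair a beta subunit with the alpha subunit encoded by INHA. Activin binds type II and type I serine-threonine kinase receptors and signals through SMAD proteins. Inhibin occupies the type II receptors with the help of the coreceptor betaglycan, and follistatin (FST) wraps around activin and keeps it from its receptors. In the ovary granulosa cells of growing follicles make both inhibin subunits and follistatin, and inhibin that leaves the ovary lowers the release of follicle-stimulating hormone by the pituitary.

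The samples were 6 RNA-seq libraries of whole ovary collected in estrus, 3 from Hu sheep, bred in China and noted for multiple births, and 3 from Mongolian sheep, which usually bear single lambs. Every library was made from polyadenylated RNA, and the breed is the only difference that the labels name. The labels give no age or treatment, and do not say whether replicates were separate ewes, so p-values measure only the spread between these libraries. The series title speaks of exosomes, whereas every sample is labelled as ovary, so the values are given as ovary values. Values listed in threes follow the replicate numbers 1, 2 and 3, and every log2 difference is Hu minus Mongolian.

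The Hu libraries stood apart from each other in how much they listed. Between 6500 (Hu 1) and 13342 (Hu 3) genes were above 0 in Hu, against 10547 to 11463 in Mongolian, and the median level of the genes tested ran from 1.04 FPKM in Hu 1 to 5.06 FPKM in Hu 3. The housekeeping gene TBP, a general transcription factor, was listed at 0 in Hu 1, and the housekeeping gene HPRT1 in Hu 1 and Mongolian 3. A value of 0 is therefore described below only as listed at 0. Some follicular and thecal transcripts were present in every library: SERPINE2, a protease inhibitor of granulosa cells, was above 14.6 FPKM, and INSL3, a thecal hormone, ranged from 5.10 to 32.6 FPKM. Other thecal markers were low or missing from some libraries: CYP17A1, needed for androgen synthesis, reached 1.47 FPKM at most, LHCGR, the luteinizing hormone receptor, was listed at 0 in 3 of 6 libraries, and CYP17A1 and HSD3B1 were listed at 0 in Hu 2. The granulosa genes AMH, FOXL2 and CYP19A1 were not listed by symbol, and FSHR, the receptor for follicle-stimulating hormone, was listed at 0 in 3 of 6 libraries. Of 11 oocyte markers 3 were listed (ZP3, GDF9 and KIT), none above 1.29 FPKM in any library.

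INHA was the most abundant of the 4 genes, and its level varied more within Hu than between breeds. It stood at 25.9, 15.8 and 40.4 FPKM in the Mongolian libraries against 99.1, 15.6 and 45.2 FPKM in the Hu libraries. Hu 1 held the highest value of the 6 libraries and Hu 2 the lowest, so the Hu range enclosed the Mongolian one. The Hu mean was 53.3 ± 42.3 FPKM and the Mongolian mean 27.4 ± 12.4 FPKM (SD, n = 3 each). The log2 difference of 0.68 had a 95% confidence interval from -0.66 to 2.02 (limma adjusted p = 0.998). By rank, INHA lay between percentiles 93.1 and 99.2 of all genes in every library, and the ranks of the breeds did not differ beyond their spread (exact permutation test, two-sided, p = 0.7; with 3 against 3 libraries no p can fall below 0.1).

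INHBA, which encodes the beta A subunit shared by inhibin A and activin A, had the same highest library. It stood at 14.0, 26.6 and 6.72 FPKM in the Mongolian libraries against 83.0, 9.72 and 32.8 FPKM in the Hu libraries. Hu 1 and Hu 3 lay above every Mongolian library, and Hu 2 lay below 2 of them. The Hu and Mongolian means of 41.8 ± 37.4 and 15.8 ± 10.1 FPKM (SD, n = 3 each) gave a log2 difference of 1.08, with an interval from -0.43 to 2.59 (limma adjusted p = 0.998). Without Hu 1 the log2 difference was 0.37 for INHBA and 0.06 for INHA, against 1.86 and 1.36 without Hu 2. Hu 1 was the library with the fewest genes listed. A fit that adjusted for how many genes each library listed gave a log2 difference of 1.04 for INHBA and 0.57 for INHA. That fit was added after the data were seen and rests on 6 libraries. What the few genes listed in Hu 1 did to these levels was not tested.

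FST, the activin antagonist, had its higher mean in Mongolian, though the difference did not pass the test. It stood at 12.3, 7.65 and 15.02 FPKM in the Mongolian libraries against 9.78, 0.23 and 4.28 FPKM in the Hu libraries. Hu 2 and Hu 3 lay below all Mongolian libraries, whereas Hu 1 lay above Mongolian 2, so the ranges overlapped. By rank, FST lay at percentiles 91.7, 46.8 and 59.8 in Hu and 90.1, 84.4 and 90.7 in Mongolian, so Hu 1 ranked it highest. Percentiles depend on how many genes a library lists. Genes listed at 0 shared percentile 27.6 in Hu 1 and 3.93 in Hu 3. The ranks of the breeds did not differ beyond their spread (exact permutation test, two-sided, p = 0.4). The Hu and Mongolian means were 4.76 ± 4.79 and 11.7 ± 3.73 FPKM (SD, n = 3 each), and the log2 difference of -1.57 had an interval from -3.22 to 0.07 (limma adjusted p = 0.998, unadjusted 0.0594). FST varied most of the 4 genes, 64.9-fold between its lowest and highest library, against 12.4-fold for INHBA, 6.36-fold for INHA and 2.15-fold for FSTL1. That span of FST rests on the value near 0 in Hu 2 (0.23 FPKM), and the remaining libraries lay between 4.28 and 15.02 FPKM. Without Hu 2, which held the lowest value, the log2 difference of FST was -0.70.

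FSTL1, a secreted glycoprotein of mesenchymal cells that shares a follistatin-type domain with FST, was the steadiest of the 4. Its levels were 10.4, 17.3 and 9.28 FPKM in the Mongolian libraries against 8.74, 12.04 and 18.8 FPKM in the Hu libraries. The ranges nearly coincided, with Hu and Mongolian means of 13.2 ± 5.10 and 12.3 ± 4.35 FPKM (SD, n = 3 each). The log2 difference was 0.08, with an interval from -1.12 to 1.28 (limma adjusted p = 0.998), which still spans a doubling in either direction.

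**Figure D1:**
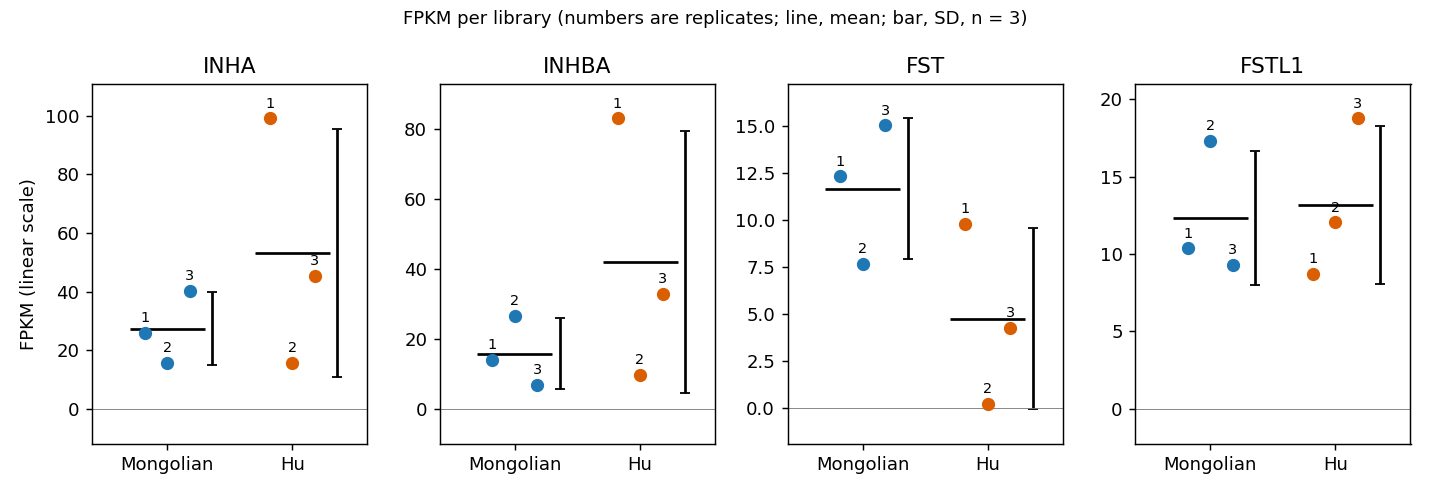
Levels of INHA, INHBA, FST and FSTL1 in FPKM on a linear axis for each breed, where each point is a library numbered by replicate, the line is the mean and the bar is the SD (n = 3). Hu 1 is highest for INHA (99.1) and INHBA (83.0), and Hu 2 is lowest for FST (0.23).

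Of the 4 genes, 0 passed an adjusted p of 0.05, where 0% of the 9971 genes tested did, and 0 had an unadjusted p under 0.05, where 3.73% of all genes did. The ranges of the breeds overlapped in all 4, whereas 7.92% of all genes had ranges that did not. The log2 difference was above 0 in 3 of the 4, against 32.3% of all genes, and the median over the 4 was 0.38, against -0.28 over all genes tested. Two-sided exact permutation tests on the FPKM means gave p = 0.5 for INHA, 0.3 for INHBA, 0.2 for FST and 0.8 for FSTL1. In whole ovary, fewer cells that make a transcript and less of it per cell cannot be told apart.

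Within libraries, the order of the mean levels over all 6 was INHA (40.3 FPKM), INHBA (28.8), FSTL1 (12.7) and FST (8.21). INHA lay above FST in 6 of 6 libraries and above INHBA in 5, the exception being Mongolian 2. No pair of neighbours in this order differed beyond its spread. The paired log2 difference was 0.65 ± 1.02 for INHA over INHBA, 0.70 ± 1.27 for INHBA over FSTL1 and 0.90 ± 1.55 for FSTL1 over FST (SD, n = 6). Two-sided exact sign-flip permutation tests gave p = 0.1875, 0.21875 and 0.25, each 0.25 after adjustment for the 3 pairs (Benjamini-Hochberg).

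Ratios between genes of a single library do not depend on the library's total, and the ratios of FST to INHA and to INHBA separated the breeds, whereas the ratio of FST to FSTL1 did not. For each unit of INHA, FST stood at 0.475, 0.485 and 0.372 in the Mongolian libraries against 0.0987, 0.0149 and 0.0945 in the Hu libraries. The ranges did not overlap, and the Mongolian values lay close together although their INHA levels differed. On log2(FPKM + 1) the ratio averaged -3.37 ± 0.34 over the Hu and -1.11 ± 0.22 over the Mongolian libraries (SD, n = 3 each). On log2 of the plain FPKM ratio it averaged -4.27 ± 1.56 and -1.18 ± 0.21. The small Hu SD therefore rests on the added 1, which also lets the ratio depend on the library's total. The ratio of FST to INHBA was 0.118, 0.0238 and 0.130 in Hu and 0.88, 0.288 and 2.24 in Mongolian, again with no overlap. The ratio of FST to FSTL1 was 1.12, 0.0192 and 0.228 in Hu and 1.19, 0.442 and 1.62 in Mongolian, where the ranges overlapped, and its mean difference of -1.65 on log2(FPKM + 1) was close to that of the FST level (-1.57).

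Separation of this kind was not rare when INHA served as the reference. Of the 4968 other tested genes above 0 in all libraries, 10% had a ratio to INHA that was lower in every Hu library than in every Mongolian library, and 4.65% had such a ratio to INHBA. With FST as the numerator, 12.1% of such genes gave a ratio that was lower in every Hu library. The gap was wider for FST than for most: the lowest Mongolian ratio of FST to INHA was 3.77 times the highest Hu ratio, and 6 of the 4968 genes, FST among them, had a gap that wide in this direction (0.121%). For the ratio to INHBA the gap was 2.21-fold, and 22 genes had one that wide in this direction (0.443%). Gaps in the other direction, with every Hu ratio the higher, were not counted. These ratios were examined with the levels already known, so they are a description and were not tested.

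The balance of the inhibin subunits themselves did not separate the breeds. INHA stood at 1.19, 1.602 and 1.38 times INHBA in Hu and at 1.85, 0.593 and 6.01 times in Mongolian. The 3 Hu libraries lay close together although INHA itself spread 6.36-fold over them, and the Mongolian libraries spread on either side. On log2(FPKM + 1) the ratio averaged 0.44 ± 0.19 over the Hu and 0.85 ± 1.57 over the Mongolian libraries (SD, n = 3 each), and the means differed by less than the Mongolian spread.

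**Figure D2:**
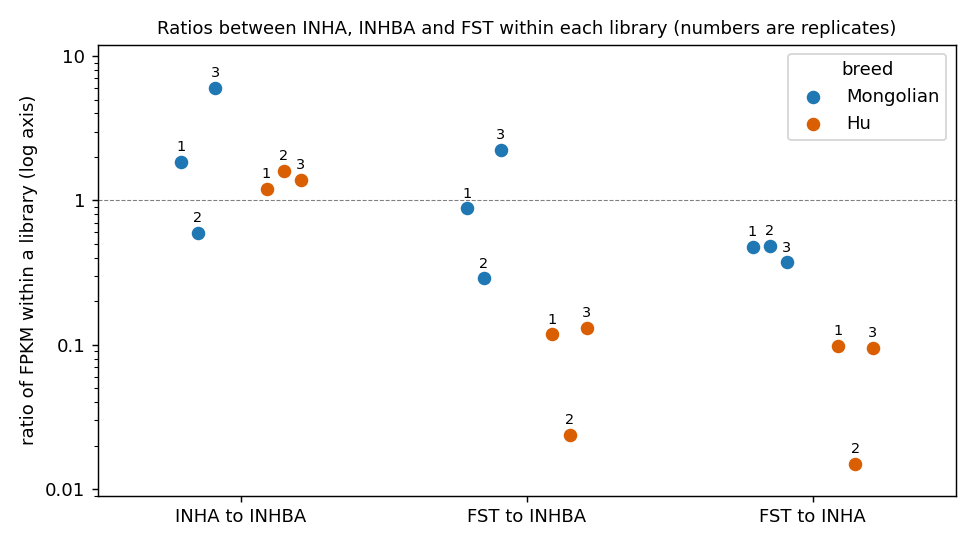
Ratio of FPKM between a pair of genes within each library, on a log axis, for INHA to INHBA, FST to INHBA and FST to INHA, with points numbered by replicate and coloured by breed. The FST to INHA ratio is at most 0.0987 in Hu and at least 0.372 in Mongolian, whereas the INHA to INHBA ratios overlap.

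The genes whose levels followed INHA most closely were sought among 2221 other genes that carried a symbol, averaged at least 5 FPKM and had a value above 0 in all 6 libraries. SERPINE2, which granulosa cells secrete to inhibit serine proteases, came first, with a Pearson r of 0.97 on log2(FPKM + 1) over the 6 libraries. It stood at 26.8, 14.6 and 34.8 FPKM in the Mongolian libraries against 82.2, 17.9 and 57.7 FPKM in the Hu libraries, so its highest library was also Hu 1. The ratio of INHA to SERPINE2 ran only from 0.784 to 1.21 over all 6 libraries. The ratio of FST to SERPINE2, looked at after the values were seen, was 0.119, 0.0129 and 0.0741 in Hu and 0.458, 0.523 and 0.431 in Mongolian, without overlap. SERPINE2 was picked for its likeness to INHA, so this ratio repeats that of FST to INHA and is not a separate observation. With FST as the numerator, 12.1% of 4968 genes gave a ratio that was lower in every Hu library. Also among the closest 5 were the GTPase RAC1 (r = 0.95), the splicing factor SFPQ (0.93) and TAF7, a subunit of the general factor TFIID (0.92).

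**Figure D3:**
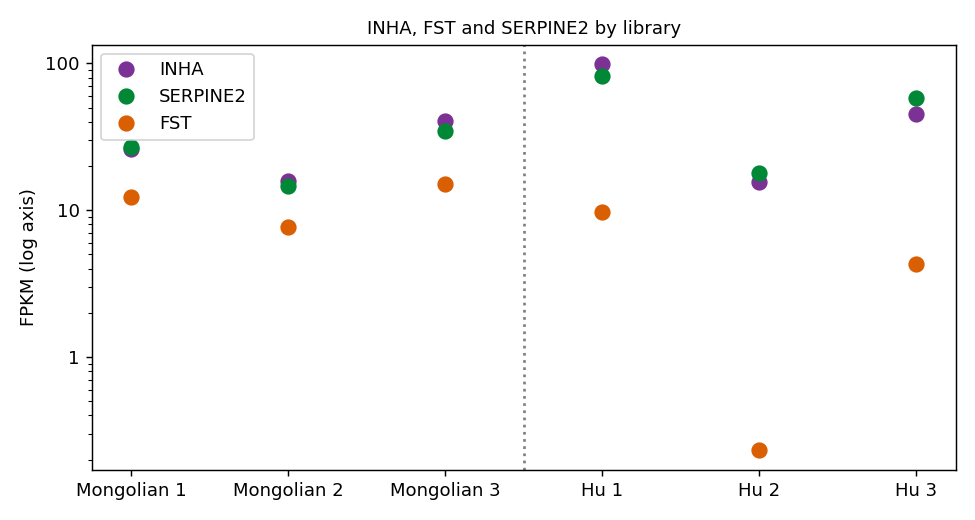
FPKM of INHA, SERPINE2 and FST in each library on a log axis, with the breeds divided by the dotted line. INHA and SERPINE2 stay close in every library (ratio 0.784 to 1.21), whereas FST lies further below them in the Hu libraries.

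The nearest patterns to the other 3 genes did not include SERPINE2. INHBA was followed most closely by SPARCL1, a matrix glycoprotein (r = 0.97), JAZF1 (0.96), the nonsense-mediated decay factor UPF2 (0.93), LUC7L3 (0.93) and CFAP36 (0.93). For FST they were the kinase EEF2K (0.98), SH3BP5L (0.98), GPANK1 (0.98), the microtubule protein MAP1A (0.97) and the splicing factor SRSF4 (0.97). FSTL1 was followed by the tetraspanin CD63 (0.99), the ribosomal protein RPS23 (0.99), the mitochondrial subunit ND2 (0.98), BTF3 (0.97) and the mitochondrial subunit COX2 (0.97). These are the highest of 2221 coefficients over the same 6 libraries, which share their totals, so their size follows from the selection. Among the 4 genes themselves r was 0.61 for INHA and INHBA, 0.46 for INHA and FST, and 0.16 for INHBA and FST, and it was -0.43 for INHA and FSTL1.

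Granulosa markers did not all follow INHA. Of 14 such markers 10 were listed and 9 tested, with 0 calls after adjustment. Of the 9, 4 log2 differences were above 0 and 5 below, against 32.3% above 0 over all genes tested. Their median was -0.80, against -0.28 over all genes tested. The 10 listed markers summed to 94.8, 49.6 and 96.0 FPKM in Hu and 78.6, 37.8 and 107.0 FPKM in Mongolian. SERPINE2 made up most of the sum in Hu 1 and Hu 3. Without SERPINE2 the other 9 listed markers summed to 12.6, 31.7 and 38.3 FPKM in Hu and to 51.8, 23.1 and 72.2 FPKM in Mongolian, so that Hu 1, the highest library for INHA, was the lowest of the 6. Only 4 of the 10 listed markers were above 0 in Hu 1, the library with the fewest genes listed. What this did to the sum was not tested. HSD17B1, which converts estrone to estradiol, was listed at 3.69, 2.46 and 6.52 FPKM in the Mongolian libraries against 0, 0 and 0.63 FPKM in the Hu libraries, a log2 difference of -2.08 (limma adjusted p = 0.998, unadjusted 0.00855). It was the granulosa marker with the lowest p and the only 1 of the 9 tested whose ranges did not overlap between breeds, where 7.92% of all genes had such ranges. Its values of 0 fell in Hu 1 and Hu 2, the libraries with the fewest genes listed (6500 and 7971). Markers of luteal cells moved unevenly: the luteal hormone OXT stood at 0, 0 and 305 FPKM in the Mongolian libraries against 78.6, 9.74 and 42.1 FPKM in the Hu libraries. The summed luteal markers ranged from 22.4 to 131 FPKM in Hu and from 9.49 to 321 FPKM in Mongolian, and the part of cell composition in the levels of INHA, INHBA and FST was not tested.

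Among the receptors of the pathway, 5 of 7 were listed and 3 tested, with 0 calls. All 3 log2 differences were below 0 (median -0.43), as were 6750 of the 9971 genes tested (median -0.28 over all genes). TGFBR3, betaglycan, the coreceptor of inhibin, was the most abundant and stood at 11.8, 6.76 and 12.5 FPKM in the Mongolian libraries against 4.06, 8.33 and 14.2 FPKM in the Hu libraries. The type I receptor ACVR1 was listed at 1.34, 2.79 and 3.14 FPKM in the Mongolian libraries against 0, 0 and 2.05 FPKM in the Hu libraries, the smallest p of the receptors (limma adjusted p = 0.998, unadjusted 0.106). The type II receptor ACVR2A was listed at 1.88, 0 and 2.04 FPKM in the Mongolian libraries against 0, 0 and 2.60 FPKM in the Hu libraries. ACVR1B, the main type I receptor of activin, and ACVR2B were too low to test, at most 1.09 and 2.18 FPKM. In Hu 1, where INHA and INHBA were highest, TGFBR3 was above 0 and the other 4 listed receptors were at 0, in a library where few genes were listed.

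The SMAD chain was represented by 7 of 12 genes, all tested, with 0 calls. Of their log2 differences 2 were above 0 and 5 below (median -0.25, against -0.28 over all genes tested). SMAD2 and SMAD3 carry the activin signal. SMAD2 stood at 11.6, 16.0 and 16.7 FPKM in the Mongolian libraries against 6.46, 10.3 and 25.9 FPKM in the Hu libraries, and SMAD3 at 13.6, 7.90 and 14.98 FPKM in the Mongolian libraries against 3.51, 5.34 and 16.0 FPKM in the Hu libraries. SMAD4, their common partner, stood at 18.1, 10.3 and 11.4 FPKM in the Mongolian libraries against 13.3, 17.8 and 62.8 FPKM in the Hu libraries, with its high Hu mean resting on Hu 3. The inhibitory SMAD6 was the only pathway gene whose ranges did not overlap: it was listed at 1.66, 1.57 and 2.10 FPKM in the Mongolian libraries against 0, 1.34 and 0.66 FPKM in the Hu libraries (limma adjusted p = 0.998), where 6.05% of all genes tested were likewise lower in every Hu library. SMURF2, a ubiquitin ligase that acts on the receptors and SMADs, was listed at 6.26, 6.40 and 2.11 FPKM in the Mongolian libraries against 0, 0 and 9.00 FPKM in the Hu libraries.

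Modulators and processing enzymes showed no call either. BAMBI, a decoy receptor, was listed at 0.60, 1.44 and 1.29 FPKM in the Mongolian libraries against 0, 7.29 and 1.62 FPKM in the Hu libraries. WFIKKN2, a secreted binder of related ligands, reached 0.59 FPKM at most in Hu and 2.18 FPKM in Mongolian. FURIN, which cleaves ligand precursors of this family, stood at 3.44, 1.81 and 6.82 FPKM in the Mongolian libraries against 1.96, 1.09 and 3.62 FPKM in the Hu libraries, and the related PCSK7 at 14.997, 7.16 and 10.9 FPKM in the Mongolian libraries against 5.70, 9.57 and 10.8 FPKM in the Hu libraries. Of 6 other ligands sought that FST can bind, BMP2, BMP4 and BMP6 were listed, none above 1.71 FPKM. MSTN, GDF11 and BMP7 were not listed by symbol. Over the 37 pathway genes, 22 were listed and 14 tested, with 3 log2 differences above 0 and 11 below, a median of -0.36 against -0.28 over all genes, and 0 with an unadjusted p under 0.05.

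**Figure D4:**
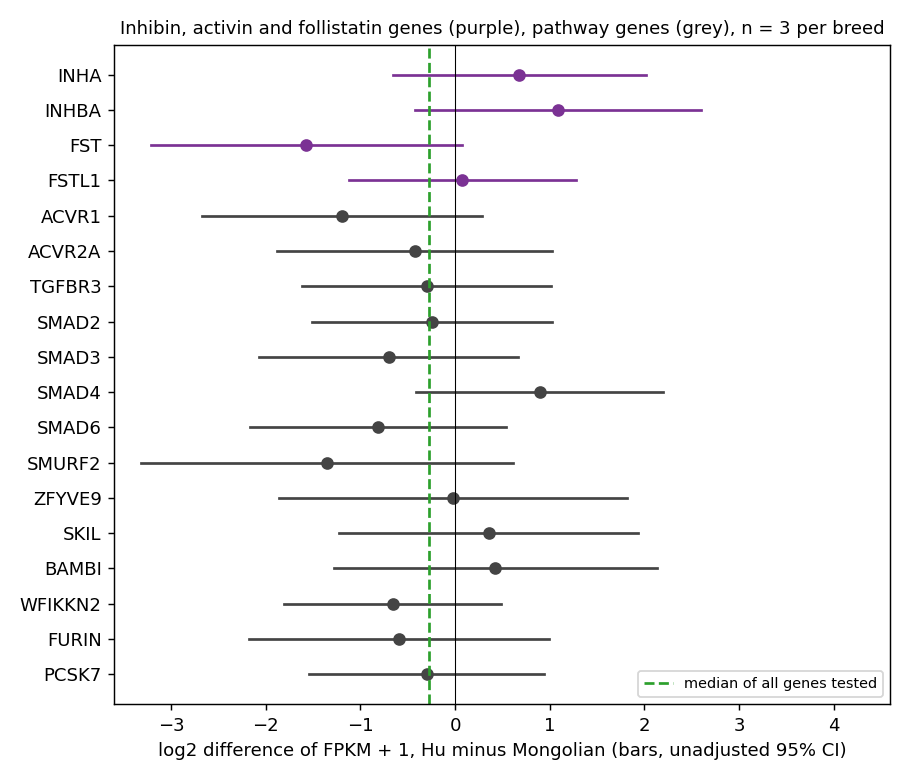
Log2 difference of FPKM + 1, Hu minus Mongolian, with its unadjusted 95% confidence interval, for the 4 genes of the inhibin, activin and follistatin system (purple) and the 14 tested pathway genes (grey), beside the median of all genes tested (dashed, -0.28). All 18 intervals include 0, and FST (-1.57) lies farthest from it.

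The direction of each difference was compared over 18 other settings. Of these, 5 (both other filters, no trend, only genes above 0 in all libraries, and the replicate block) cannot move the estimate. In the other 13 FST lay below 0, between -3.32 and -0.70, whereas INHA and INHBA turned below 0 in 2 each and FSTL1 in 4. Weighting the libraries by estimated quality was the only setting that called one of the 4: FST had a log2 difference of -2.84 (limma adjusted p = 0.0167, against 0.0692 to 0.99997 in the other settings). That setting gave Hu 2, the library with the lowest FST, a weight of 3.64 against 0.41 for Hu 1 and 0.25 for Hu 3. It called 633 of the 9971 genes tested, 558 of them lower in Hu and 75 higher, and the median log2 difference over all genes was -0.43.

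**Figure D5:**
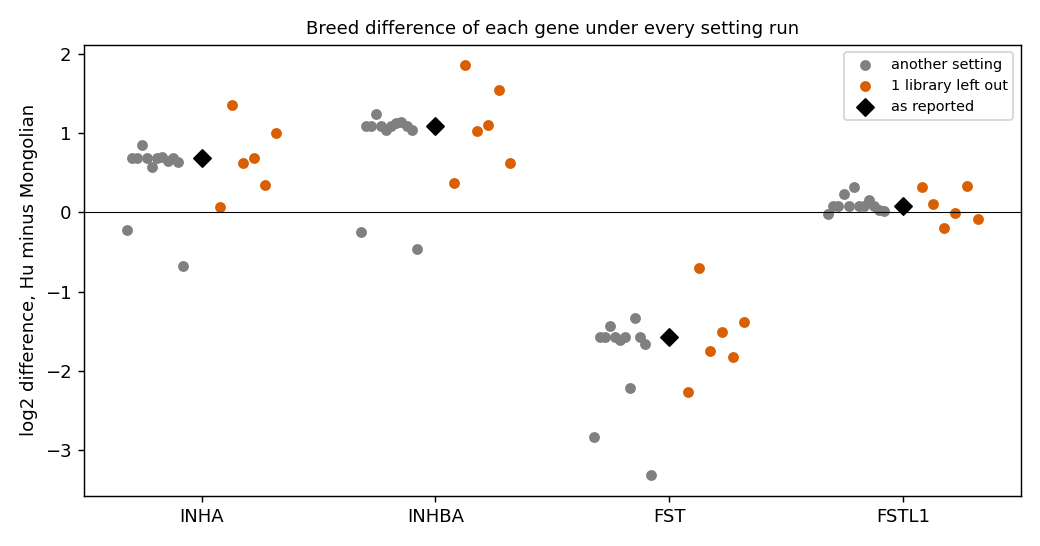
Log2 difference of each gene, Hu minus Mongolian, as reported (diamond), with 1 library left out (orange) and under the other settings (grey). FST lies between -3.32 and -0.70, whereas the points of INHA, INHBA and FSTL1 lie on both sides of 0.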

How the data were processed

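The authors deposited FPKM values (fragments per unit of transcript length and of sequenced library) for genes, a column for each of 6 libraries. Columns were matched to samples by the codes in the sample descriptions, and no column was left without a sample. Libraries were made from column-purified RNA with a SMARTer mRNA kit, per the labels' protocols, a kind of kit that amplifies copies by PCR. Aligner, counting tool and genome build were not given in the sources used here. No position or sequence is printed. FPKM depends on the library total, which a few transcripts can dominate: 53.3% to 79.7% of each library's sum lay in its 2 most abundant genes. Low values were searched for steps of whole reads. At most 0.566% of genes under 2 FPKM shared a ratio within a 0.2% bin, so depth is unknown and no count model or counting interval was used. No value above 0 was identical between libraries.

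The 9971 genes that reached 0.5 FPKM in 3 or more libraries were tested on log2(FPKM + 1), which understates changes of low genes, with limma 3.58.1 in R 4.3.3 (eBayes with trend, two-sided, breed as the only factor, Benjamini-Hochberg over all genes tested; calls need an adjusted p below 0.05). The script was checked on simulated data. Ranks are percentiles among all genes listed, with the genes at 0 in a library tied, so they depend on how many genes that library lists. The alternatives were another pseudocount, other filters, 3 scalings, the replicate number as a block, array weights, no trend and each library left out. After the data were seen, the other settings added were genes above 0 in all libraries, omission of both Hu 1 and Hu 3, and a covariate for how many genes each library listed. The comparison of neighbouring levels, the SERPINE2 ratios and the gap widths were also added then.

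Named genes were all members, genes of the pathway and granulosa lists, and the 5 genes with the highest Pearson r to each member. Of the genes this rule gave, 1 is left out of the text. FSTL1 was added to the last rule after its values were seen. OXT, INSL3, CYP17A1, LHCGR, HSD3B1, ZP3, GDF9, KIT and the housekeeping genes TBP and HPRT1 were also named outside the rule. Members and lists were chosen with earlier results of these data known.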

Additional observations from a re-analysis of the deposited data

How the results depend on the processing

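With limma, 0 genes were called in the reported fit (372 at an unadjusted p under 0.05). Array weights called 633, leaving out Hu 1 and Hu 3 together called 25, and leaving out single libraries called 0 to 4. The log2 difference of FST was -2.84 with array weights, where it passed, and -0.70 to -2.27 with single libraries left out. INHA was at -0.23 and INHBA at -0.25 with array weights, and at -0.68 and -0.46 without Hu 1 and Hu 3 together, settings that rest mostly or wholly on Hu 2 among the Hu libraries. Without single libraries INHA ran from 0.06 to 1.36 and INHBA from 0.37 to 1.86. FSTL1 was at -0.028 with array weights and ran from -0.19 to 0.33 without single libraries, turning below 0 without Hu 3, Mongolian 1 or Mongolian 3. The Hu minus Mongolian difference in the FST to INHA log2 ratio was -2.25 with a pseudocount of 1 and -2.91 with 0.1, since the value in Hu 2 is near 0. It ran from -2.06 to -2.38 without single libraries, and that of FST to INHBA from -1.999 to -3.36. The difference in the INHA to INHBA log2 ratio was -0.40 and ran from -1.19 (without Mongolian 2) to 0.38 (without Mongolian 3) without single libraries.

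Deviations of same-numbered libraries correlated at -0.01, -0.03 and -0.18, and those of differently numbered libraries at -0.11 to 0.16. With 3 replicates per breed these values cannot show whether the replicate numbers mark a pairing. With the replicate number as a block, 0 genes were called and the limma adjusted p of FST was 0.999; in this balanced design a block cannot move the log2 difference (-1.57). Depth is unknown, so no limit from counting can be given for values near 0 such as FST in Hu 2.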
